A study of Homo sapiens with 13 samples.

Results

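The locus described here is a stretch of human chromosome 11 (chr11:11950000-12300000, hg19, 350.0 kb) that holds the genes DKK3 and MICAL2 and many binding sites of 4 transcriptional regulators: YAP, TAZ, TEAD4 and JUN. Its members are the 74 peaks, of 50467 in all, whose summit lay in that window. They comprised 26 of 24554 JUN peaks, 18 of 9798 TAZ peaks, 15 of 8406 TEAD4 peaks and 15 of 7709 YAP peaks. The locus was chosen by the number of regions in which peaks of all 4 factors overlapped, so its density of peaks and of such regions is a description and carries no test.

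The peaks come from chromatin immunoprecipitation and sequencing (ChIP-seq) of MDA-MB-231 cells, for which the labels give no treatment, an established line from a basal-like, triple-negative human breast cancer, which is 1 genetic background and carries an activated RAS pathway. The series holds 13 libraries: 2 replicates each of YAP, TAZ, TEAD4 and JUN, and the IgG controls, which are 2 rabbit and 3 mouse libraries. One peak list per factor was deposited for both replicates together, so no value below has a spread between replicates, and the read depth is unknown. YAP and TAZ were called against the rabbit IgG libraries and TEAD4 and JUN against mouse IgG, so levels of different factors are set side by side only as ranks within each list. Enrichment below is the authors' fold of ChIP over IgG at a peak, and "top 10%" means within the most enriched 10% of that factor's list. In the list deposited for TAZ every peak is named with a tag of both YAP and TAZ, and whether it holds the TAZ libraries alone was not tested. The libraries measure where the factors were bound and hold no measure of the transcripts of either gene.

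YAP and TAZ are transcriptional coactivators that the Hippo kinases hold in check. They do not bind DNA themselves and are brought to it mainly by the TEAD proteins, of which TEAD4 is one. JUN is a subunit of AP-1, a dimer that binds DNA through its own motif and often occupies the same enhancers as TEAD proteins. DKK3 encodes a secreted glycoprotein of the Dickkopf family. It is a divergent member whose role in Wnt signalling is less clear than that of its relative DKK1, and it was also named REIC for its reduced expression in immortalized cells. MICAL2 encodes a flavin monooxygenase that oxidizes actin, promotes filament disassembly and raises the activity of the serum response factor coactivator MRTF.

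In the selection rule DKK3 runs from 11984543 to 12030917 on the minus strand, so that its start is at the higher coordinate, and MICAL2 starts at about 12115543 on the plus strand. The starts lie 84.6 kb apart and the genes are transcribed away from each other. In the RefSeq gene table, which is on another build (GRCh38.p14), the MICAL2 start lies 101 kb from that of DKK3, so other MICAL2 starts are annotated. With a start placed at that distance every peak would keep its side of the MICAL2 start, since no peak of any list lay between 12109350 and 12181136. In the same table the protein-coding neighbours are USP47 beyond the 3′ end of DKK3 and PARVA and then TEAD1 beyond MICAL2, and the non-coding LINC02547 and LINC02989 lie between DKK3 and MICAL2. No exon or intron annotation of hg19 was used here, so sites are placed in a gene's span or outside it and not in a particular exon or intron.

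Overlapping peaks of any list were merged into regions, called sites here and numbered 1 to 28 from low to high coordinate. Of the 28 sites, 13 (46.4%) held all 4 factors, against 4284 of the 28100 merged regions of the whole genome (15.2%). JUN alone was found at 8 sites (28.6%), against 58.0% of all regions. The remaining 7 sites held other sets: YAP, TAZ and JUN without TEAD4 at site 15, TEAD4 with JUN at site 17, TAZ with JUN at sites 19 and 26, YAP with JUN at site 22, TAZ with TEAD4 at site 24, and TAZ alone at site 25. JUN was the most frequent factor, at 26 of 28 sites (92.9%, against 87.3% of all regions). TAZ was present at 18 sites (64.3%, against 34.5% of all regions), YAP at 15 (53.6%, against 27.1%) and TEAD4 at 15 (53.6%, against 29.5%). Of the 28 sites, 19 held YAP or TAZ (67.9%, against 36.5% of all regions).

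Seen from each list, 13 of the 15 YAP peaks lay in a site of all 4 factors, against 56.6% of YAP peaks in all. For TAZ it was 13 of 18, against 44.6%, and for TEAD4 13 of 15, against 52.0%. For JUN it was 13 of 26, against 17.5%. These shares follow from the way the locus was chosen. JUN had 7.43 peaks per 100 kb in the locus, against 0.923 per 100 kb of the spanned part of chromosome 11, and TAZ had 5.14, against 0.387. YAP and TEAD4 had 4.29 each, against 0.326 for YAP and 0.318 for TEAD4.

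**Figure D1:**
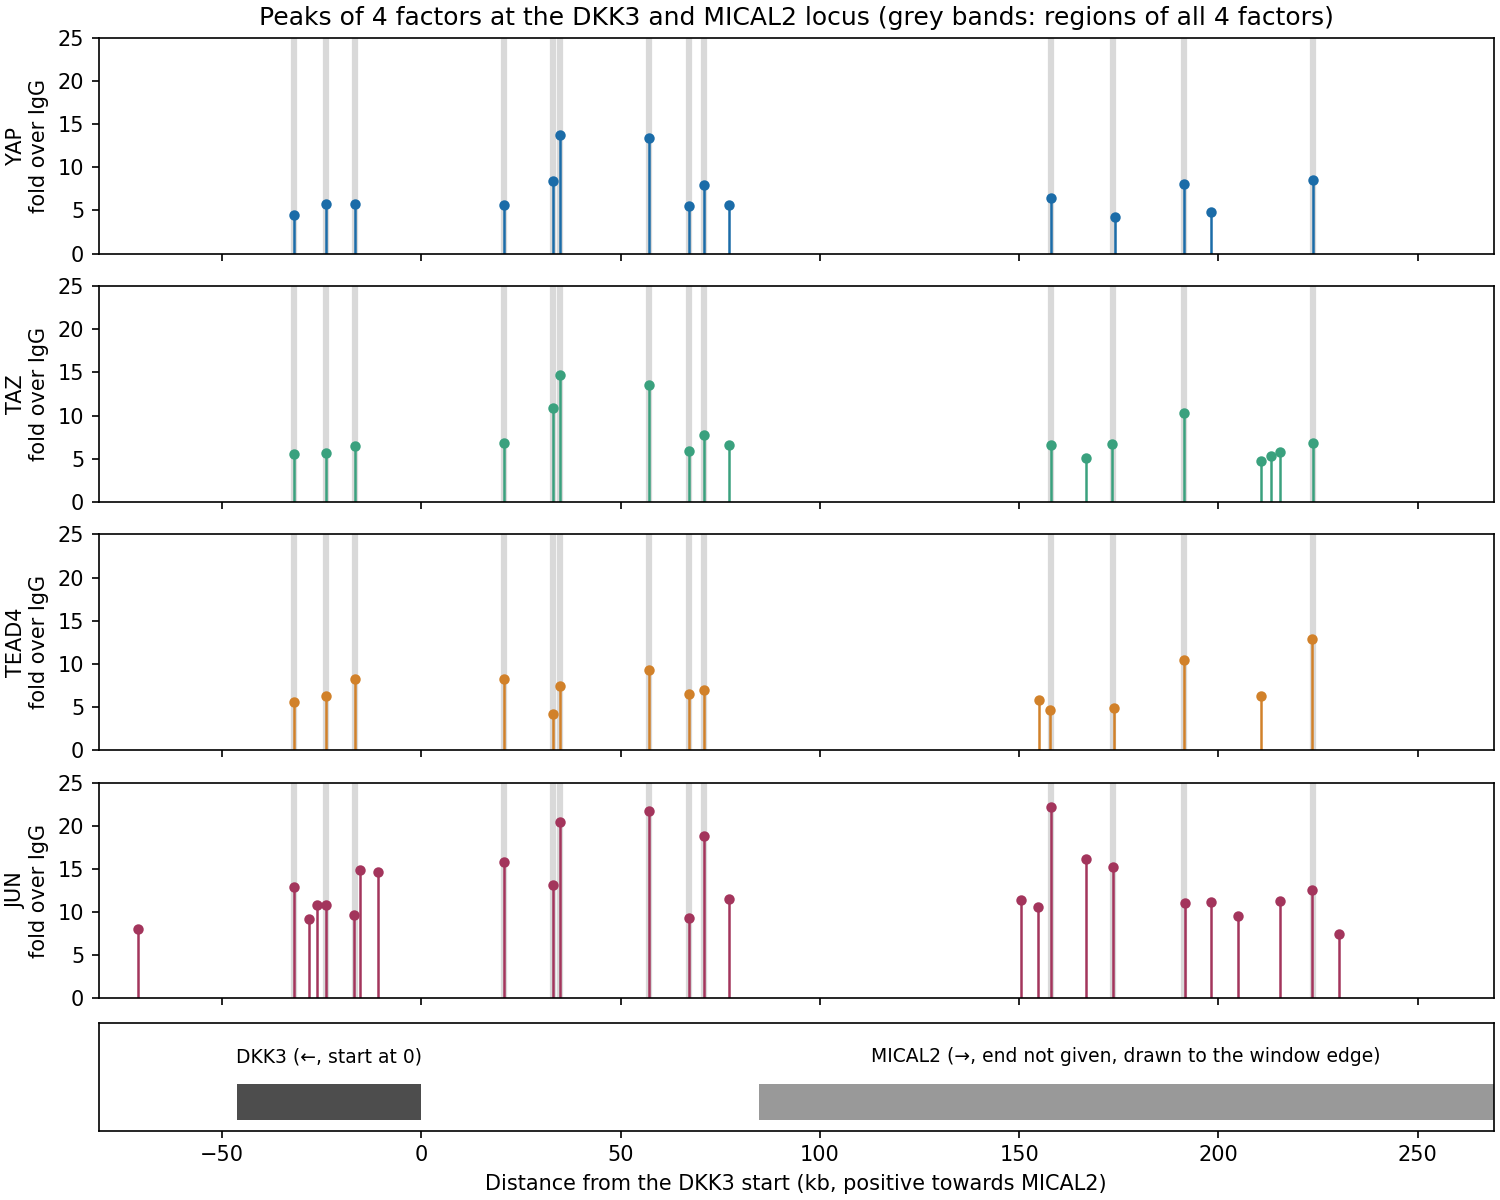
Each stem is 1 of the 74 peaks, placed by its summit in kb from the DKK3 start (x axis, positive towards MICAL2), with the fold enrichment over IgG as its height, in 1 panel per factor; grey bands mark the 13 sites of all 4 factors and the bars at the bottom the genes. The peaks form 3 groups, in DKK3, between the genes and far inside MICAL2, with no peak at either gene start and none for 71.8 kb around the MICAL2 start.

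Neither gene start carried a peak. The edge of the nearest peak lay 10.3 kb inside DKK3 and 20.3 kb upstream of its start. For MICAL2 the nearest peak edges were 6.19 kb upstream of the start and 65.6 kb inside the gene. The sites thus formed 3 groups: 7 within DKK3, all in the part from 10.8 to 31.9 kb downstream of its start; 7 between the genes, from 20.8 to 77.1 kb upstream of the DKK3 start; and 13 within MICAL2, from 65.8 to 146 kb downstream of its start. Site 1, a JUN peak of 8.04-fold enrichment (11959498 to 11959982), stood alone on the USP47 side of DKK3. The widest gap between neighbouring sites was 71.8 kb, from site 15 to site 16, and the median gap was 5.12 kb. Between neighbouring sites of all 4 factors the median gap was 13.0 kb in the locus, against 253 kb along the genome.

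The group between the genes held the most complete sites. Of its 7 sites, 6 held all 4 factors and the other one, site 15, held all but TEAD4, so YAP, TAZ and JUN were present at every one. In DKK3 3 of 7 sites held all 4 factors, and the other 4 were JUN alone. In MICAL2 4 of 13 sites held all 4 factors and 3 were JUN alone, and this group also had the other 6 sites that lacked 1 or more factors. The group between the genes also had the higher median enrichments. Its median YAP enrichment was 7.96-fold over 7 peaks, against 5.71-fold over 3 peaks in DKK3 and 6.39-fold over 5 in MICAL2. For TAZ the medians were 7.79-fold between the genes, 5.68-fold in DKK3 and 6.19-fold in MICAL2. For JUN they were 15.8-fold, 10.9-fold and 11.3-fold in the same order, and for TEAD4 7.23-fold, 6.24-fold and 6.03-fold. The ranges of the 3 groups overlapped for every factor. By −log10 p the lead of the group between the genes over DKK3 was not kept for YAP and was slight for TAZ. The middle YAP value was 42.0 between the genes (site 14), against 43.4 in DKK3 (site 6). For TAZ it was 48.3 (site 15), against 48.1 (site 2). For JUN the lead was kept, with 207 (site 9) against 124 (site 4). TEAD4 ran from 25.5 to 106 between the genes and from 35.5 to 75.3 in DKK3. Its middle values were 54.9 and 60.8 (sites 13 and 11), against 44.7 (site 5). In MICAL2 the middle values by p were lower than between the genes for every factor. They were 37.5 for YAP (site 18) and 154 for JUN (site 26). For TAZ they were 32.2 and 46.4 (sites 25 and 27), and for TEAD4 42.8 and 49.3 (sites 17 and 24).

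Sites 11 and 12 carried the strongest YAP and TAZ peaks of the locus. Site 11 (12065158 to 12066475) lay 34.8 kb upstream of the DKK3 start, with enrichments of 13.8-fold for YAP, 14.7-fold for TAZ, 7.48-fold for TEAD4 and 20.4-fold for JUN. Site 12 (12087470 to 12089074) lay 57.0 kb upstream of DKK3 and 27.6 kb upstream of MICAL2, with 13.4-fold for YAP, 13.5-fold for TAZ, 9.25-fold for TEAD4 and 21.7-fold for JUN. By enrichment these are strong but not extreme peaks in the lists as a whole. The YAP peak of site 11 ranked 614 of 7709 (top 7.96%) and its TAZ peak 579 of 9798 (top 5.91%). TEAD4 ranked lower in its own list than YAP and TAZ did in theirs, in the top 46.3% at site 11 and the top 27.5% at site 12. Its 9.25-fold at site 12 was still above its median of 8.30-fold at the regions of all 4 factors elsewhere. Ordered by p, JUN ranked higher in its list, in the top 2.62% at site 11 and the top 0.77% at site 12.

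Site 10 (12063620 to 12064421), 0.736 kb from site 11, showed the same order more sharply. TAZ was enriched 10.9-fold there (top 15.5% of its list) and YAP 8.42-fold (top 35.6%), but TEAD4 4.21-fold, in the weakest part of its list (top 99.0%). Sites 9 (12051251 to 12052016) and 14 (12101537 to 12102268) were led by JUN, with 15.8-fold and 18.8-fold enrichment (top 22.1% and top 11.02%). YAP had 5.59-fold at site 9 and 7.96-fold at site 14. Site 13 (12097308 to 12098563) was weak by enrichment for every factor, between the top 61.9% for TEAD4 and the top 87.4% for YAP. By p its peaks ranked in the top 42.2% for TEAD4, 50.6% for JUN, 59.3% for TAZ and 78.5% for YAP.

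Site 15 (12106898 to 12109350), the nearest to the MICAL2 start at 7.49 kb upstream, was the widest of the locus at 2453 bp. It had YAP at 5.62-fold, TAZ at 6.56-fold and JUN at 11.5-fold, and their summits fell within 86 bp of each other. No TEAD4 peak was listed there.

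In DKK3 the 3 sites of all 4 factors had YAP peaks that were weak by enrichment. Ordered by p, the YAP peaks of sites 5 and 6 ranked in the top 42.9% and top 47.6%, and that of site 2 in the top 84.3%. Site 2 (11997971 to 11999382), 31.9 kb inside the gene, had 4.48-fold for YAP (top 98.4%), 5.51-fold for TAZ, 5.52-fold for TEAD4 and 12.9-fold for JUN. Site 5 (12006545 to 12007428) had 5.71-fold for YAP, 5.68-fold for TAZ, 6.24-fold for TEAD4 and 10.9-fold for JUN. Site 6 (12013837 to 12014368) had 5.80-fold for YAP, 6.43-fold for TAZ, 8.28-fold for TEAD4 and 9.62-fold for JUN, and was the only one of the 3 whose TEAD4 peak lay in the stronger 50% of its list. Of the JUN-only sites, site 3 (12002298 to 12003000) had 9.26-fold and site 4 (12004245 to 12005383) 10.9-fold. Sites 7 (12015244 to 12016265) and 8 (12019660 to 12020613), nearer to the start, had JUN enrichments of 14.9-fold and 14.7-fold (top 26.7% and top 27.9%), above the JUN values of all 3 sites with YAP and TAZ.

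In MICAL2 the factors led at different sites. Site 27 (12254251 to 12255129), 139 kb inside the gene, had the strongest TEAD4 peak of the locus, at 12.8-fold (rank 850 of 8406, top 10.1%), with 8.55-fold for YAP, 6.87-fold for TAZ and 12.6-fold for JUN. Site 18 (12188278 to 12189458), 73.3 kb inside the gene, had the strongest JUN peak of the locus by enrichment, at 22.2-fold (rank 1054 of 24554, top 4.29%). By p it ranked 292, behind the JUN peak of site 12 at rank 189. TEAD4 at site 18 was among the weakest of its list, at 4.64-fold (top 96.4%), with 6.39-fold for YAP and 6.61-fold for TAZ.

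At site 21 (12221427 to 12223121) TAZ and TEAD4 were at 10.3-fold and 10.4-fold (top 18.7% and top 19.6%), YAP at 8.03-fold and JUN at 11.02-fold (top 56.6%). Site 20 (12203883 to 12205401) had the weakest YAP peak of the locus, at 4.24-fold (top 99.3%), with 6.73-fold for TAZ, 4.89-fold for TEAD4 and 15.3-fold for JUN. By enrichment, high JUN and low TEAD4 thus went together at sites 18 and 20, and the reverse held at site 21. By p JUN was not low at site 21, in the top 27.7%, against the top 20.0% at site 20. These sites were picked after seeing the values, and the pattern was weak over the locus as a whole. Over the 13 sites of all 4 factors the Spearman rank correlation of TEAD4 and JUN enrichment was −0.17. At the 4271 such regions elsewhere it was 0.11.

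The remaining sites of MICAL2 were weak by enrichment for YAP, TAZ and TEAD4. By p only the TEAD4 peak of site 24 lay in the stronger 50% of its list, at the top 48.4%. TAZ had 5.05-fold at site 19 (12197152 to 12198022), 4.74-fold at site 24 (12241194 to 12241922), 5.36-fold at site 25 (12243465 to 12244225) and 5.77-fold at site 26 (12245754 to 12246902), all in the weaker 50% of its list. YAP had 4.86-fold at site 22 (12228137 to 12229582), the single site of the locus with YAP and no TAZ. TEAD4 had 5.80-fold at site 17 (12185042 to 12186389) and 6.25-fold at site 24. JUN was stronger at site 19, at 16.2-fold (top 20.3%), than at sites 17, 22 and 26, where it had 10.6-fold, 11.1-fold and 11.3-fold. The strongest JUN-only peak in MICAL2, site 16 (12181136 to 12181830), had 11.4-fold, and site 23 (12235298 to 12236069), also JUN alone, had 9.60-fold.

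**Figure D2:**
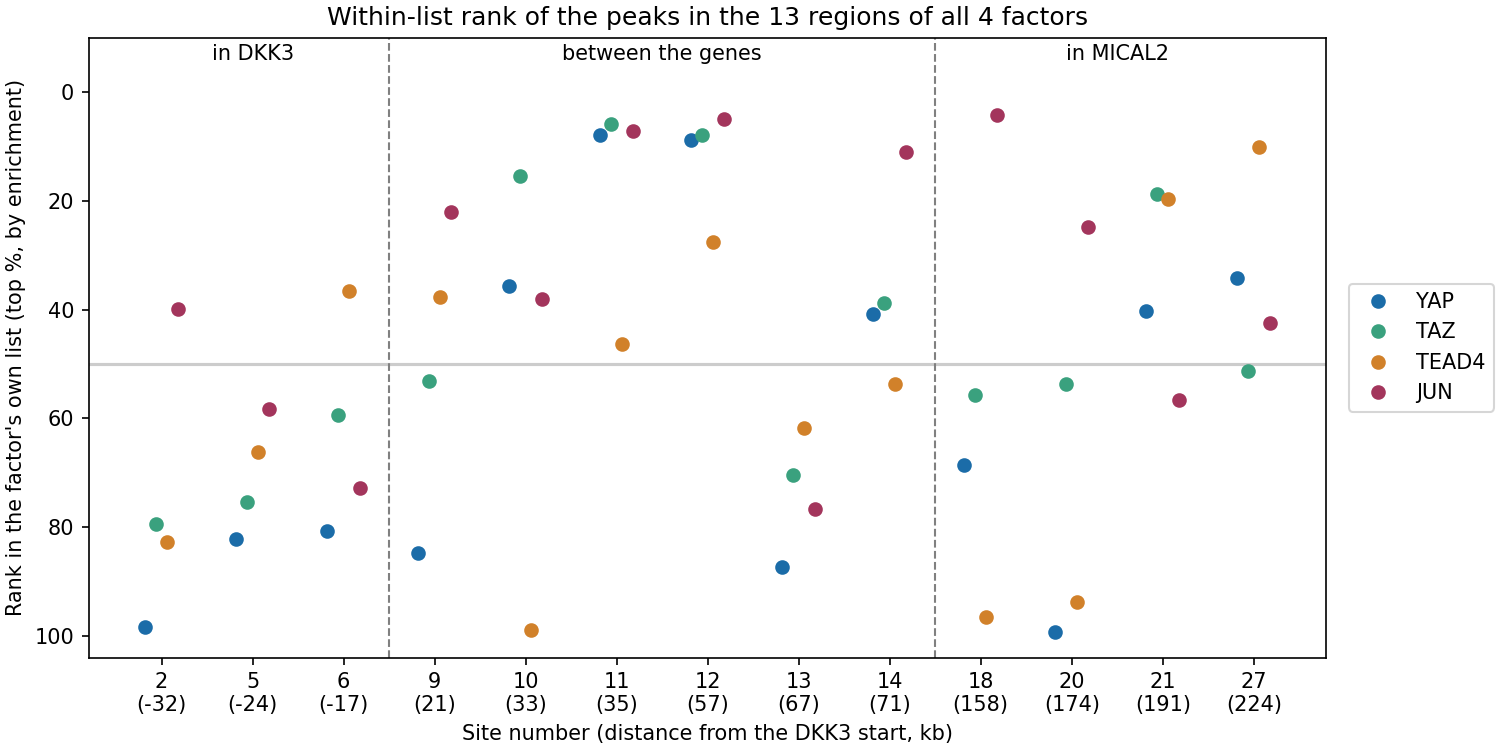
Each point is the peak of 1 factor at 1 of the 13 sites of all 4 factors, given as its rank by enrichment within that factor's own list (y axis, top %, strongest at the top; the grey line marks 50%), with sites in order along the locus (x axis) and dashed lines between the 3 groups. YAP, TAZ and JUN reached the top 10% together at sites 11 and 12, while TEAD4 was lowest at site 10 and highest at site 27.

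Over the whole locus the peaks were of ordinary to low enrichment for their lists. The median was 5.80-fold for YAP in the locus, against 7.35-fold over its list, and 6.59-fold for TAZ, against 6.96-fold. It was 6.45-fold for TEAD4, against 7.20-fold, and 11.5-fold for JUN, against 11.7-fold. The stronger 50% of each list held 6 of the 15 YAP peaks, 5 of the 18 TAZ peaks, 6 of the 15 TEAD4 peaks and 12 of the 26 JUN peaks. In the top 10% were 2 YAP, 2 TAZ, no TEAD4 and 3 JUN peaks. Even within the sites of all 4 factors the locus was not on the strong side: the YAP median was 6.39-fold, against 8.25-fold at the 4271 such regions elsewhere, and the TAZ median 6.78-fold, against 8.64-fold. TEAD4 had a median of 6.97-fold, against 8.30-fold, and JUN of 13.2-fold, against 14.2-fold.

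JUN peaks at the 13 sites of all 4 factors had a median enrichment of 13.2-fold (9.33 to 22.2), against 10.2-fold (7.41 to 14.9) at the 8 JUN-only sites of the locus. Over the whole list the corresponding medians were 14.2-fold and 10.99-fold. The 2 groups of the locus overlapped.

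The rank of the locus peaks depended on which of the authors' values was used. Ordered by p, the median YAP rank was the top 49.9%, and ordered by enrichment the top 80.7%. For TAZ it was 43.0% by p and 56.3% by enrichment, for TEAD4 48.4% and 61.9%, and for JUN 28.0% and 52.4%. The median −log10 p of JUN was 154 in the locus, against 108 over its list, while that of YAP was 42.0 in both. Of the 74 peaks, 67 had a better rank by p than by enrichment, against 48.1% of all 50467 peaks and 63.2% of the 2543 other peaks of chromosome 11. They included all 26 JUN peaks, all 16 peaks in DKK3 and all 30 in MICAL2, and 20 of the 27 between the genes. The peaks were also wide, with a median YAP width of 687 bp, against 554 bp over its list, and a median TAZ width of 752 bp, against 587 bp. The TEAD4 median was 563 bp, against 503.5 bp, and the JUN median 988 bp, against 730 bp. The part of peak width or of the IgG background in this shift was not tested.

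**Figure D3:**
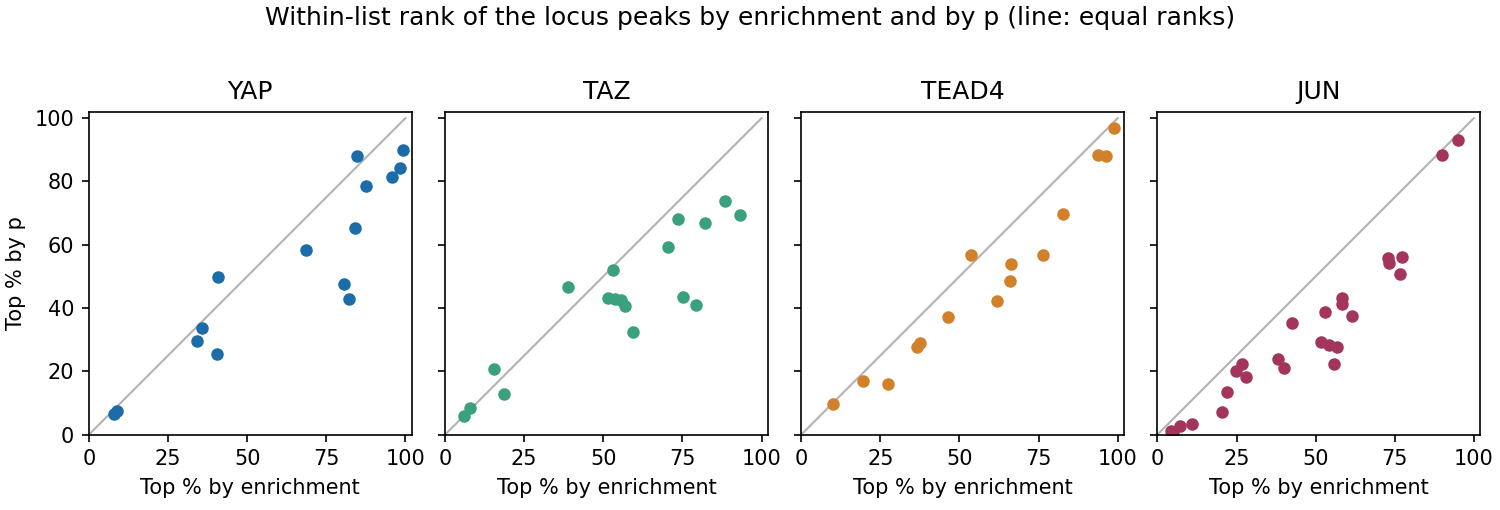
Each point is 1 of the 74 locus peaks, with its rank by enrichment (x axis, top %) and by p (y axis, top %) within its own list, in 1 panel per factor; points under the grey line rank better by p. Under the line lie all 26 JUN peaks, 14 of 15 TEAD4 peaks, 14 of 18 TAZ peaks and 13 of 15 YAP peaks.

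Where all 4 factors shared a site, each list had exactly 1 peak there, and the summits mostly lay close together. The 4 summits fell within 22 bp at site 2, 24 bp at site 12, 32 bp at site 10, 33 bp at site 13 and 44 bp at site 11. At the 9 sites in DKK3 and between the genes the spread was 22 to 96 bp. At the 4 sites in MICAL2 it was 144 to 565 bp. How often the spread exceeds 96 bp at the regions elsewhere is not given here. The median spread over the 13 sites was 79 bp, against 48 bp at the 4271 regions elsewhere. It was within 50 bp at 38.5% of the 13 sites, against 52.7% elsewhere, and over 500 bp at 7.69%, against 5.03%. The YAP, TAZ and TEAD4 peaks were 929 to 1400 bp wide at sites 18, 20 and 21 and 583 to 784 bp at site 27. At the 9 sites in DKK3 and between the genes they were 448 to 1318 bp wide. The part of peak width in the spread was not tested.

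The factors that stood apart in MICAL2 differed from site to site. At site 21 the JUN summit lay 390 bp from that of TEAD4, while those of YAP, TAZ and TEAD4 fell within 71 bp. At site 20 the YAP and TEAD4 summits lay 87 bp apart, and the TAZ summit lay 565 bp from that of YAP but near that of JUN. At site 18 the YAP summit lay 214 bp from that of TEAD4. At site 27 the TEAD4 and JUN summits were 3 bp apart, and those of YAP and TAZ lay 106 and 141 bp from TEAD4.

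By pairs, the median summit distance was 17 bp for YAP and TAZ, against 16 bp elsewhere, 24 bp for YAP and TEAD4, against 17 bp, and 42 bp for TAZ and TEAD4, against 17 bp. It was 65 bp for YAP and JUN, against 27 bp, 41 bp for TAZ and JUN, against 26 bp, and 27 bp for TEAD4 and JUN, against 30 bp. A distance over 100 bp was found at 4 of the 13 sites for YAP and JUN and at 2 for every other pair. Elsewhere the share over 100 bp ran from 2.11% for YAP and TAZ to 13.6% for TEAD4 and JUN. With 1 list per factor the summits have no replicate error, and none of these distances was tested.

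**Figure D4:**
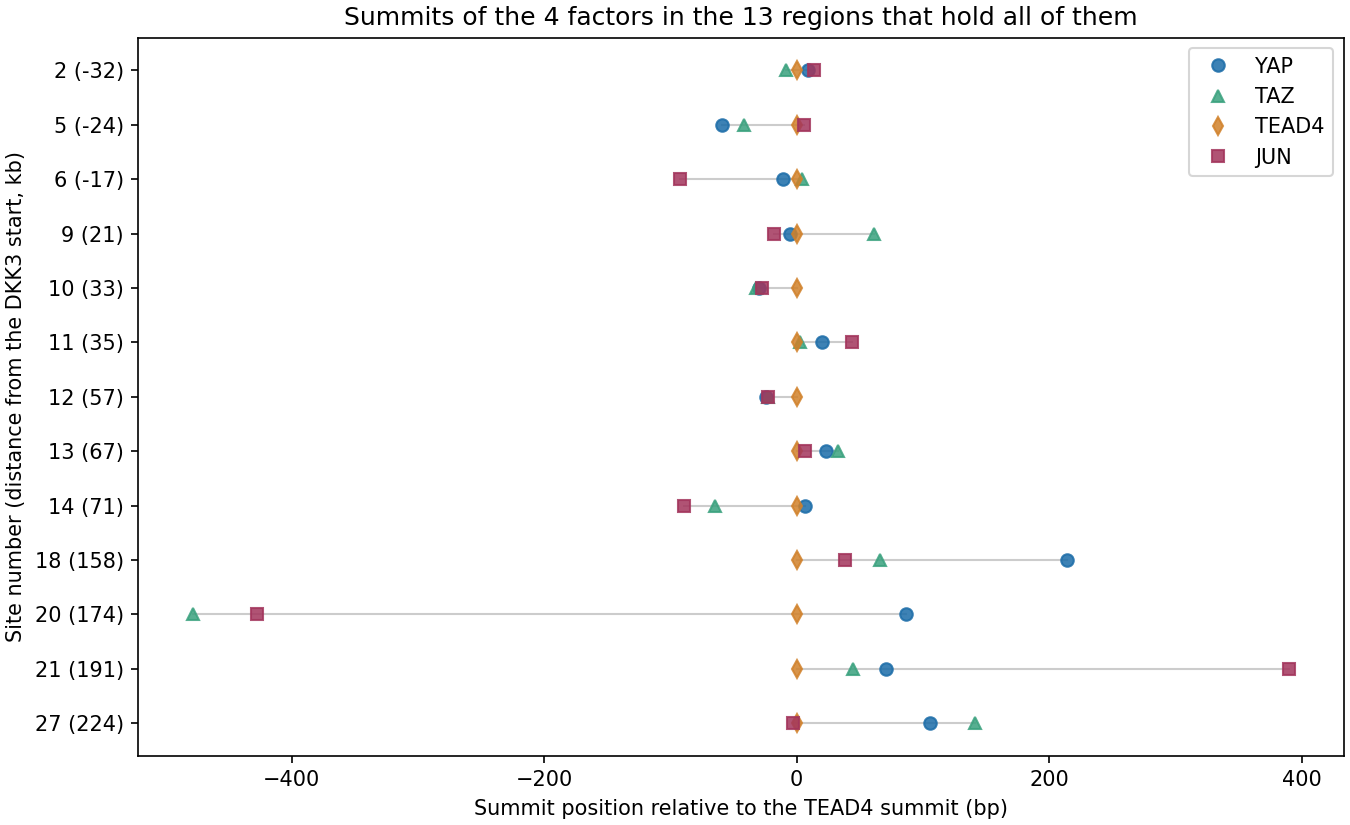
Each row is 1 of the 13 sites of all 4 factors, in order along the locus, and each marker the summit of 1 factor in bp from the TEAD4 summit (x axis, positive towards MICAL2). The 9 upper rows, in DKK3 and between the genes, span at most 96 bp, and the 4 rows in MICAL2 span 144 to 565 bp.

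A factor missing from a site can have had a candidate that was not listed. Peak numbers in the deposited names ascend along the chromosome, and gaps in them can be read as unlisted candidates if the numbers count all of them. From the first to the last listed peak of the locus the YAP list held 15 of 28 numbers (53.6%), against 23.9% over chromosome 11. TAZ held 18 of 44 (40.9%, against 22.3%), TEAD4 15 of 24 (62.5%, against 30.5%) and JUN 26 of 66 (39.4%, against 24.8%). These shares, too, follow in part from the way the locus was chosen, and each count begins and ends at a listed peak. At the JUN-only sites 7 and 8 in DKK3 no TEAD4 number was missing between the flanking TEAD4 peaks, 37.1 kb apart, so on that reading no TEAD4 candidate existed there. Around site 15, which lacked TEAD4, 1 number was missing in the 83.2 kb between the flanking TEAD4 peaks. For YAP and TAZ, every site that lacked the factor had at least 1 missing number between the flanking peaks, so a candidate below the listing threshold may lie at any one of them.

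Counted in fixed 100-kb windows, the one from 12000001 to 12100000 held 7 sites of all 4 factors among 11 sites, the most of any window. Of the windows with any such region 2632 held 1, and 2 windows held 6, both on chromosome 1. The first of these, 86000001 to 86100000, held 6 such regions among 14, and the second, 172800001 to 172900000, 6 among 9. Ordered by enrichment, YAP and TAZ ranked lower in the locus window than in both of these. Ranks by p were not compared per factor between these windows. The median YAP rank by enrichment was the top 80.7%, against the top 28.4% in the first and 58.0% in the second. The median TAZ rank was the top 53.1%, against 21.7% and 38.3%. The median TEAD4 rank lay between theirs, at the top 46.3%, against 28.1% and 52.5%. The median JUN rank was higher, at the top 38.0%, against 83.3% and 46.2%. The median spread of the 4 summits was 44 bp in the locus window, against 53 and 65.5 bp.

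The lead of the locus window was kept with some window sizes and not with reduced lists. In any 100-kb span that starts at such a region the locus reached 8, against 7 elsewhere. In windows of 200 kb it reached 9, against 7 elsewhere, and in windows of 50 kb 5, against 5. On the 100-kb grid shifted by 50 kb it held 6, against 6 elsewhere. With each list reduced to its 7709 most enriched peaks the densest 100-kb window of the locus held 3, against 3 elsewhere. With the stronger 50% of each list it held 2, against 3 elsewhere. The whole 350.0-kb window held 13 such regions, and the densest other span of that length, on chromosome 1 from 85764164 to 86114163, held 12.

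**Figure D5:**
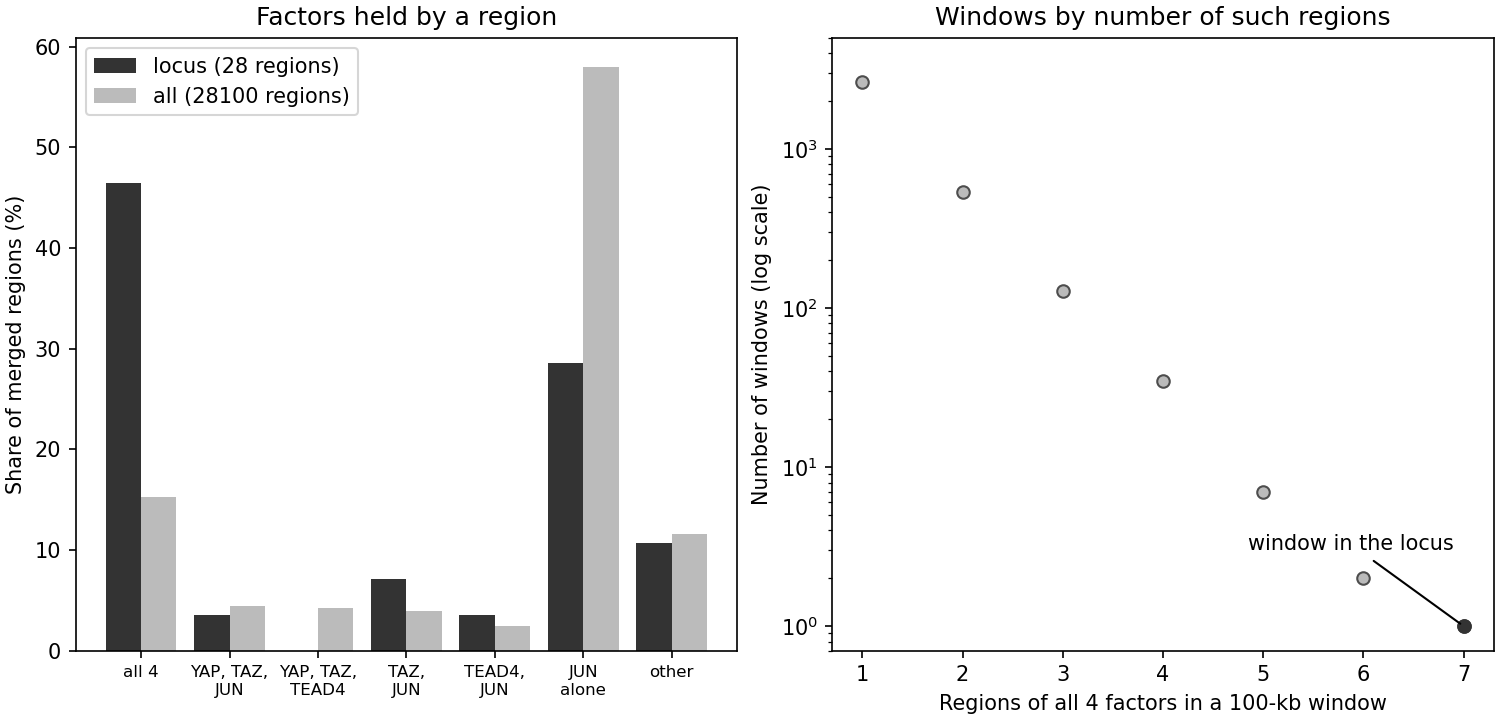
Left, the share of merged regions (y axis, %) by the factors they hold, for the 28 regions of the locus (dark) and all 28100 regions (light). Right, the number of 100-kb windows (y axis, log scale) by how many regions of all 4 factors they hold (x axis); the single window with 7 lies in the locus, and 46.4% of the locus regions hold all 4 factors, against 15.2% of all.

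Below the window the next site of the 4 factors lay 180 kb outside it, a region of all 4 with 8.16-fold for YAP (11770219 to 11770555) and 8.70-fold for JUN. Above it, a JUN-only peak of 9.53-fold lay 6.74 kb beyond the edge and a region of all 4 factors about 8.7 kb beyond, with 8.66-fold for YAP (12308394 to 12309022), 8.18-fold for TAZ and 7.03-fold for TEAD4. The last site inside was site 28 (12260865 to 12261393), a JUN peak of 7.41-fold.

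No peak covered the DKK3 or the MICAL2 start of the selection rule, and other starts were not placed. The RefSeq promoter table (GRCh38.p14, 250 bases before to 50 after a start) held 2 entries for MICAL2, which cannot be placed on the hg19 peaks here. Neither held GGAATG, the core TEAD motif, or TGANTCA, an AP-1 motif, on either strand. Of all 35116 promoter entries, 14.03% held the first and 7.71% the second. These letters being absent from those windows says nothing about the factors.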

How the data were processed

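ChIP-seq libraries were grouped by the factor in their titles or by their IgG. The submitters' processing notes name hg19 and, as tools, MACS2 2.0.10, Bowtie 0.12.7, CASAVA and SAMtools. The authors called peaks, per the labels, in the IDR (irreproducible discovery rate) framework at 0.01, against pooled rabbit IgG 1 and 2 for YAP and TAZ, mouse IgG 3 and 4 for TEAD4, and mouse IgG 3 and 5 for JUN. Each deposited list gives per peak a score, not used here, the fold enrichment over IgG (a ratio), the −log10 of p and of q (q not used), and the summit. Depth is unknown, so precision from it cannot be given.

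With Python 3.11.15, each list was ranked by enrichment, and "top 10%" is the rank over the list length. Peaks overlapping by at least 1 bp were merged into regions, which were checked on planted peaks. Windows count regions by midpoint. Where a region has several peaks of a list, the most enriched gives the summit. Named are both genes of the rule, their RefSeq neighbours, every site of all 4 factors or with YAP, TAZ or TEAD4, and the strongest peaks of each list and of JUN alone. The other JUN sites were also described, so that every site of the locus has its values. No test was run. The members and lists were chosen with earlier results of these data known. Gene bounds come from the selection rule. Other genes' sites were not analysed here.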

Additional observations from a re-analysis of the deposited data

How the results depend on the processing

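Of 29 alternative values, 16 stayed within 1.5 times of the reported count or at the same value, and 13 moved. The summit spacing with exactly 1 peak of each list could only stay, because all 13 sites have that form. The median ranks by p counted as moved unless identical, so the tally is no measure of stability. The 13 sites of all 4 factors became 11 with a reciprocal overlap of 50%, which lost sites 2 and 12. They also became 11 with summits within 200 bp or with peaks narrowed to 200 bp, both of which lost sites 20 and 21 in MICAL2. Joining gaps of up to 1 kb gave 12. With the stronger 50% of each list there were 14 sites in the locus and 2 of all 4 factors, sites 11 and 12. With lists of equal length there were 4 (sites 9, 11, 12 and 14). Chosen after seeing the data, the same reductions by p gave 4 with the stronger 50% and 8 with equal length. In the densest 100-kb window, the reductions by enrichment or by p, also chosen after seeing the data, gave 3 with equal length and 2 with the stronger 50%, against 3, 5, 3 and 4 as the most in any window elsewhere (equal length by enrichment and by p, stronger 50% by enrichment and by p). Fewer peaks enter these alternatives by construction. Ranked by p, JUN had a median rank in the top 28.0%, TAZ 43.0%, TEAD4 48.4% and YAP 49.9%; the cause was not tested. Replicates could not be left out in turn. No paired analysis was possible because both replicates share a single list. What depth limits is unknown.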

Other observations

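The shift from rank by enrichment to rank by p was measured around the locus and at the 2 chromosome 1 windows with 6 regions of all 4 factors. The median difference (top % by enrichment minus top % by p) was 10.6 over the 74 locus peaks, against −0.35 over all peaks and 2.53 over the rest of chromosome 11. It was 1.52 over the 20 peaks in the 1 Mb below the window and 5.00 over the 53 peaks in the 1 Mb above it. In the chromosome 1 windows it was 9.08 (34 of 35 peaks ranked better by p) and 8.32 (26 of 31). Within the locus it was 16.9 in DKK3, 4.59 between the genes and 12.0 in MICAL2.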
